A study of Mus musculus with 6 samples.

Results

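The myostatin, activin and TGF-beta system is the set of secreted growth inhibitors of muscle, the antagonist that binds some of them, and the receptors through which they act. Its 10 members were taken by name from the 55416 genes of the deposited expression table, in which each member name had 1 row. They were 5 ligand genes (*Mstn*, *Inhba*, *Tgfb1*, *Tgfb2* and *Tgfb3*), 1 antagonist (*Fst*), 2 type I receptors (*Acvr1b* and *Tgfbr1*) and 2 type II receptors (*Acvr2b* and *Tgfbr2*). The study asked how loss of lactoferrin, the iron-binding protein encoded by *Ltf*, affects satellite cells (SCs), the stem cells of skeletal muscle. SCs were sorted from hind leg muscle of adult mice as cells without Sca1 and CD11b and with CD34 and α7-integrin, and grown for 4 days on 10% Matrigel, in DMEM that held 10 ng/ml basic fibroblast growth factor, chick embryo extract at 1% and fetal bovine serum at 20%, with no other treatment. RNA was sequenced from 3 libraries of wild type (WT) SCs and 3 libraries of SCs from *Ltf*-KO mice, which carry a CRISPR-Cas9 deletion inside *Ltf* in all tissues, made in C57/BL6N zygotes.

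Myostatin, the activins and the TGF-betas are made as precursors from which a mature dimer is released, and they signal by joining a type II and a type I receptor kinase, which then phosphorylates SMAD2 and SMAD3. Myostatin is known as a brake on muscle mass, and activin A and TGF-beta1 hold back the differentiation of cultured myoblasts. Follistatin, the product of *Fst*, captures activins and myostatin outside the cell. Those domains were visible in the annotation of the deposited table. All 5 ligands carried the TGF-beta domain and its propeptide, 4 members carried a protein kinase domain, and the glycine and serine rich segment was listed for 2, the type I receptors. The KEGG TGF-beta signaling pathway was listed for 9 of the 10 members, *Mstn* being the exception.

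Values are TPM, transcript abundances corrected for gene length and brought to a common total in each library, so levels can be compared between genes, but sequencing depth is not known from them. In WT libraries the deleted gene, *Ltf*, had values of 0.12, 0.02 and 0.02 TPM, and in *Ltf*-KO libraries it had 0.02, 0.03 and 0 TPM. It was near 0 in both genotypes, so its level does not check the genotype labels. The labels were checked for cell type with fixed marker lists. *Myod1*, a myogenic transcription factor and the most abundant gene of the SC and myoblast list, stood between 748 and 816 TPM, and *Pax7*, which defines SCs, stood between 36.6 and 43.3 TPM. *Calcr*, a receptor of resting SCs, was at or below 0.07 TPM in all 6 libraries. Of 18 genes of muscle differentiation, all 18 had a mean of at least 1 TPM, led by *Mylpf*, a myosin light chain, at 1040 TPM. The defining immune markers *Ptprc*, *Itgam* and *Adgre1* were at or below 0.16 TPM. Of the 8 macrophage markers, 3 had a mean of at least 1 TPM, namely *Cd14* (6.27 to 8.18 TPM), *Cd68* (3.12 to 3.98 TPM) and *Lyz2*, which reached 7.22 TPM in WT replicate 1 and was between 0.38 and 2.31 TPM in the other libraries. The cultures thus held myoblast transcripts at high levels together with transcripts of differentiation.

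In order of their mean TPM over the 6 libraries, the members were *Tgfb1* (43.8 ± 4.50 TPM, SD, n = 6), *Fst* (32.3 ± 1.78), *Inhba* (18.5 ± 6.33), *Tgfb3* (16.6 ± 1.71), *Tgfbr1* (13.2 ± 0.391), *Tgfbr2* (12.5 ± 0.600), *Tgfb2* (5.67 ± 0.481), *Acvr1b* (3.93 ± 0.187), *Acvr2b* (1.86 ± 0.661) and *Mstn* (1.33 ± 0.494). The ranges of neighbours in this order overlapped for *Inhba* and *Tgfb3*, for *Tgfbr1* and *Tgfbr2*, and for *Acvr2b* and *Mstn*, and were apart for the other 6 neighbouring pairs. *Inhba* was above *Tgfb3* in 3 of 6 libraries and *Tgfbr1* was above *Tgfbr2* in 4 of 6. *Fst* transcripts exceeded those of *Inhba* in each library, by a ratio of TPM from 1.06 in *Ltf*-KO replicate 2 to 2.52 in WT replicate 2, and those of *Mstn* by 16.5 to 45.4.

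**Figure D1:**
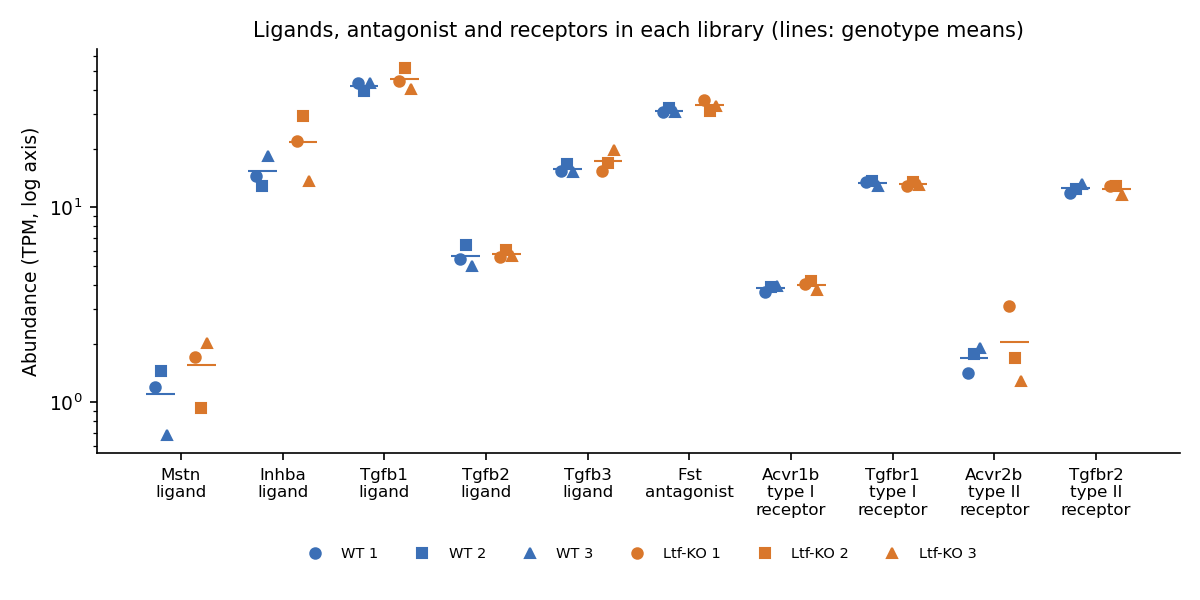
Abundance of the 10 members in TPM on a log axis, with 1 point per library (blue, WT; orange, *Ltf*-KO; circle, square and triangle, replicates 1, 2 and 3) and a line at each genotype mean. The genotypes overlap for all 10 members, and the points of *Mstn*, *Inhba* and *Acvr2b* are the most spread, with highest to lowest ratios of 2.97, 2.29 and 2.45.

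*Ltf*-KO was compared with WT by limma on log2(TPM + 1) over 12956 genes whose mean reached 1 TPM, a filter that all 10 members passed. A fold change on this scale understates the change of a gene with low TPM. By limma, 0 of the 10 members had an adjusted p under 0.05, against 0 of all tested genes (0.0%), and 0 of 10 had an unadjusted p under 0.05, against 490 of all tested genes (3.78%), 260 of them higher (2.01%) and 230 lower (1.78%) in *Ltf*-KO SCs. With quantile normalization these 2 counts were 203 and 305. The genotypes overlapped in every member (0 of 10 apart), while they were apart for 1096 of the tested genes (8.46%). The labels do not say whether the libraries came from separate animals, so the p-values measure the spread between these libraries, which may be technical.

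*Mstn* (ENSMUSG00000026100), which encodes myostatin, was at 1.20, 1.45 and 0.68 TPM in WT and at 1.70, 0.94 and 2.02 TPM in *Ltf*-KO libraries. *Ltf*-KO replicates 3 and 1 were the highest, but *Ltf*-KO replicate 2 fell below WT replicates 1 and 2. The log2 fold change was 0.27 (standard error 0.24, 95% confidence interval -0.30 to 0.84, limma adjusted p = 0.999), and it was 0.45 when *Ltf*-KO replicate 2 was left out and 0.11 when WT replicate 3 was, and 0.45 with a pseudocount of 0.1. With the values at this low level, the interval spans folds of 0.812 to 1.79 on the log2(TPM + 1) scale. The summed TPM of the 18 differentiation genes was 4198, 5370 and 3924 in WT and 4592, 4019 and 6304 in *Ltf*-KO libraries. Both measures had their highest value in *Ltf*-KO replicate 3 and their lowest in WT replicate 3, as did *Tgfb3*. Each of the 18 genes was highest in *Ltf*-KO replicate 3, against 17.0% of all tested genes. Their lowest library differed, with 8 lowest in WT replicate 3, 7 in *Ltf*-KO replicate 2 and 3 in WT replicate 1. Of all tested genes, 16.5% were lowest in WT replicate 3. The part of differentiation in the *Mstn* values was not tested, and in bulk RNA more cells with a transcript and more transcript per cell cannot be told apart.

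*Inhba* (ENSMUSG00000041324), which encodes the subunit of activin A, was at 14.6, 12.8 and 18.4 TPM in WT and at 22.0, 29.3 and 13.6 TPM in *Ltf*-KO libraries. *Ltf*-KO replicates 1 and 2 were above every WT library, whereas *Ltf*-KO replicate 3 was below WT replicates 1 and 3. In the main fit its log2 fold change was the largest among the members, at 0.43 (standard error 0.27, 95% confidence interval -0.21 to 1.07, limma adjusted p = 0.999). The value depended on single libraries, being 0.19 without *Ltf*-KO replicate 2 and 0.71 without *Ltf*-KO replicate 3. In the latter fit *Inhba* was the 1 member with an unadjusted p under 0.05, against 611 of all tested genes. Without *Ltf*-KO replicate 2 or WT replicate 2, the value of *Mstn* was larger, at 0.45 and 0.38 against 0.19 and 0.32 for *Inhba*. *Ccn2*, a matricellular gene that TGF-beta induces, was at 104, 97.7 and 142 TPM in WT and at 147, 168 and 91.2 TPM in *Ltf*-KO libraries, and *Postn*, encoding periostin, at 27.2, 25.9 and 43.6 TPM and at 41.7, 53.0 and 27.0 TPM. Both were chosen after their values were seen, and as for *Inhba*, their 3 highest values were in *Ltf*-KO replicates 1 and 2 and WT replicate 3. Leaving out *Inhba*, *Ccn2* and *Postn*, 9 of 20 tested target genes had their 3 highest values in these libraries, as did 25 of 76 tested pathway genes (32.9%) and 9.19% of all tested genes. This order was not limited to targets. It was seen in 3 of 6 tested receptors, 3 of 8 activators, 5 of 15 antagonists and carriers and 5 of 19 SMADs and modulators. Among the 9 tested ligands, only *Inhba* had it. The other 11 targets had other orders, among them *Acta2*, smooth muscle actin, which was highest in *Ltf*-KO replicate 3 at 593 TPM and lowest in WT replicate 3 at 409 TPM. The 7 endothelial markers, of which 6 had a mean of at least 1 TPM and 0 were at 0 in all libraries, summed to 12.3, 9.45 and 21.2 TPM in WT and to 19.3, 20.1 and 10.7 TPM in *Ltf*-KO libraries, with *Egfl7* the most abundant at 3.53 TPM. *Egfl7* was the 1 of 6 tested endothelial markers at an unadjusted p under 0.05, against 3.78% of all tested genes. It was at 2.32, 1.91 and 3.30 TPM in WT and at 5.74, 4.61 and 3.29 TPM in *Ltf*-KO libraries (log2 fold change 0.66, limma adjusted p = 0.999). The log2 fold changes of the other tested endothelial markers were -0.28 for *Vwf*, -0.06 for *Kdr*, 0.05 for *Pecam1*, 0.15 for *Emcn* and 0.24 for *Cdh5*. The fibroblast and fibro-adipogenic list of 10 genes, of which 7 averaged 1 TPM or more, with *Dpt*, *Lum* and *Pi16* at 0.37 TPM or less, summed to 84.9, 90.5 and 92.2 TPM and to 92.6, 100.3 and 91.0 TPM, of which *Gsn*, also expressed by muscle cells, made up 79.4 TPM on average. *Sox10*, which defines Schwann cells, was at 2.99, 4.14 and 6.62 TPM and at 5.26, 5.66 and 3.38 TPM. All 3 measures were highest in the same 3 libraries as *Inhba*, but of the 7 tested fibroblast markers only *Pdgfra* and *Gsn* had this order themselves and 5 did not. It was seen in 4 of the 6 tested endothelial markers and equally in 4 of the 6 tested Schwann markers. The cells were stained for CD31, an endothelial surface protein, and CD45, a leukocyte one, and the gate given for the sort selected against Sca1, which endothelial and fibro-adipogenic cells carry. The part of these cell types in the *Inhba* values was not tested.

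**Figure D2:**
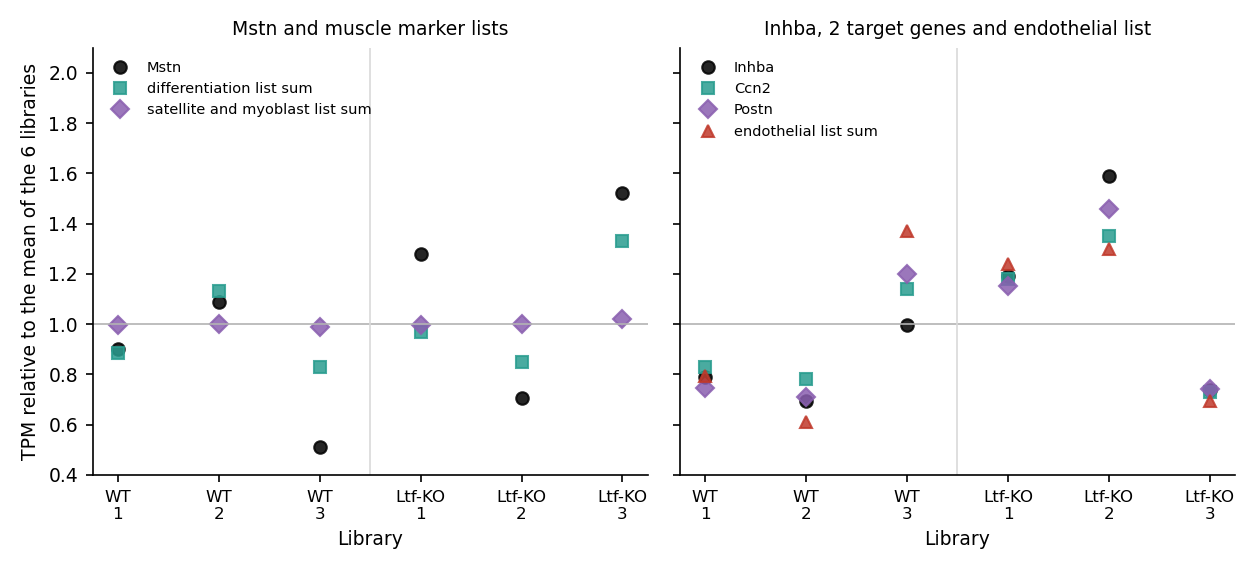
TPM of single genes and summed TPM of marker lists in each library, divided by the mean of the 6 libraries. *Mstn* runs from 0.511 in WT replicate 3 to 1.52 in *Ltf*-KO replicate 3 and the differentiation list from 0.829 to 1.33 in the same libraries, while *Inhba* is highest in *Ltf*-KO replicate 2, at 1.59.

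The promoters of *Mstn* and *Inhba* are shown because these were the ligands whose levels varied most between libraries. RefSeq promoter windows on GRCm38.p6 were matched for 8 of the 10 members by name, *Tgfb3* and *Fst* having no entry. The 250 bases before the start are given 5′ to 3′ on the plus strand, chr1:53061390-53061639 for *Mstn* and chr13:16011601-16011850 for *Inhba*, in lower case with each E-box (CANNTG, the motif bound by myogenic helix-loop-helix factors, the same on both strands) in capitals.
Mstn: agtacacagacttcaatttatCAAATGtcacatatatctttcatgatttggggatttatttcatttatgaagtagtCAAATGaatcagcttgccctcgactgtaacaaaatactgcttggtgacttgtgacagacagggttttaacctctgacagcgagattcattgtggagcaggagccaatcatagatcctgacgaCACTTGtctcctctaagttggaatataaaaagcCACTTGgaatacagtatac
Inhba: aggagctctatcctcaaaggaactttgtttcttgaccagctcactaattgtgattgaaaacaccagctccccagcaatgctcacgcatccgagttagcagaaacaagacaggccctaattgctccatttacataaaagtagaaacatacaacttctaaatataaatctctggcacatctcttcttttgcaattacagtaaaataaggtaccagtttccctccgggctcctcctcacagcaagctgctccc
The *Mstn* window held 4 E-boxes and the *Inhba* window 0. At least 1 E-box was in 66.2% and at least 4 were in 3.84% of the 32851 promoter windows of this length. The *Tgfb1*, *Acvr2b* and *Tgfbr2* windows also held 0 E-boxes, as did 1 window of *Tgfbr1*. The *Tgfb2* and *Acvr1b* windows and the other *Tgfbr1* window held 1 each. In all, 4 motifs were searched, each chosen after the expression values were seen. The 2 that are not described here did not separate the genes, with 0 matches of one and 1 match of the other in both the *Mstn* and the *Inhba* window. The motif CAGAC, searched on both strands as a SMAD binding element, matched 2 times for *Mstn* and 0 times for *Inhba*, and at least 2 matches were in 11.7% of windows. The *Tgfb2* window also had 2 such matches. A match is a description of letters and binding was not measured.

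The 3 TGF-beta genes differed less between libraries. *Tgfb1* (ENSMUSG00000002603) was at 43.5, 39.4 and 43.4 TPM in WT and at 44.3, 52.1 and 40.3 TPM in *Ltf*-KO libraries, so that *Ltf*-KO replicates 1 and 2 lay above the WT range and replicate 3 within it. Its log2 fold change was 0.11 (standard error 0.10, 95% confidence interval -0.13 to 0.34, limma adjusted p = 0.999), and it was 0.0079 without *Ltf*-KO replicate 2 and 0.19 without *Ltf*-KO replicate 3. *Tgfb2* (ENSMUSG00000039239) was between 5.02 and 6.38 TPM, with both ends in WT libraries, and *Tgfb3* (ENSMUSG00000021253) was between 15.1 and 16.8 TPM in WT and 15.4 and 19.7 TPM in *Ltf*-KO libraries. Their log2 fold changes were 0.03 (95% confidence interval -0.20 to 0.27) and 0.12 (95% confidence interval -0.11 to 0.35). That of *Tgfb2* was -0.03 without WT replicate 3 and 0.12 without WT replicate 2. For *Tgfb3*, *Ltf*-KO replicate 3 was the highest library, and the log2 fold change was 0.03 when it was left out and 0.20 without *Ltf*-KO replicate 1.

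*Fst* (ENSMUSG00000021765) was at 30.8, 32.3 and 30.9 TPM in WT and at 35.4, 31.1 and 33.3 TPM in *Ltf*-KO libraries. *Ltf*-KO replicates 1 and 3 were above all WT libraries and replicate 2 was inside their range. The log2 fold change was 0.08 (standard error 0.06, 95% confidence interval -0.06 to 0.22, limma adjusted p = 0.999), an interval that spans folds of 0.961 to 1.17. It was 0.04 without *Ltf*-KO replicate 1 and 0.13 without *Ltf*-KO replicate 2. In the GENCODE M21 annotation, exons of *Fst*, *Tgfb2* and *Tgfb3* overlap 1, 1 and 2 genes on the opposite strand, which were listed at 0.43 TPM or less.

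The receptors varied little, with the exception of *Acvr2b*. The type I receptor of TGF-beta, *Tgfbr1* (ENSMUSG00000007613), was at 13.5, 13.7 and 12.9 TPM in WT and at 12.8, 13.5 and 13.0 TPM in *Ltf*-KO libraries, and its partner *Tgfbr2* (ENSMUSG00000032440) at 11.8, 12.5 and 13.1 TPM and at 12.8, 12.8 and 11.6 TPM. The ratio of *Tgfbr1* to *Tgfbr2* stayed between 0.985 and 1.14 over the 6 libraries. *Acvr1b* (ENSMUSG00000000532), the type I receptor of activin, was between 3.68 and 4.20 TPM. These 3 genes had log2 fold changes of -0.03 (95% confidence interval -0.16 to 0.11), -0.0039 (95% confidence interval -0.17 to 0.16) and 0.04 (95% confidence interval -0.17 to 0.25). With each library left out, *Tgfbr1* lay between -0.05, when WT replicate 3 was omitted, and -0.01, when WT replicate 2 was, and *Acvr1b* between 0.02, when *Ltf*-KO replicate 2 was omitted, and 0.08, when *Ltf*-KO replicate 3 was. The sign of *Tgfbr2* changed, from -0.0383 without WT replicate 1 to 0.0405 without *Ltf*-KO replicate 3. *Acvr2b* (ENSMUSG00000061393), the type II receptor that binds myostatin and activin, was at 1.42, 1.77 and 1.89 TPM in WT and at 3.13, 1.68 and 1.28 TPM in *Ltf*-KO libraries. *Ltf*-KO replicates 1 and 3 held its highest and lowest values, and the log2 fold change of 0.13 (standard error 0.24, 95% confidence interval -0.45 to 0.70) was -0.12 without *Ltf*-KO replicate 1.

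**Figure D3:**
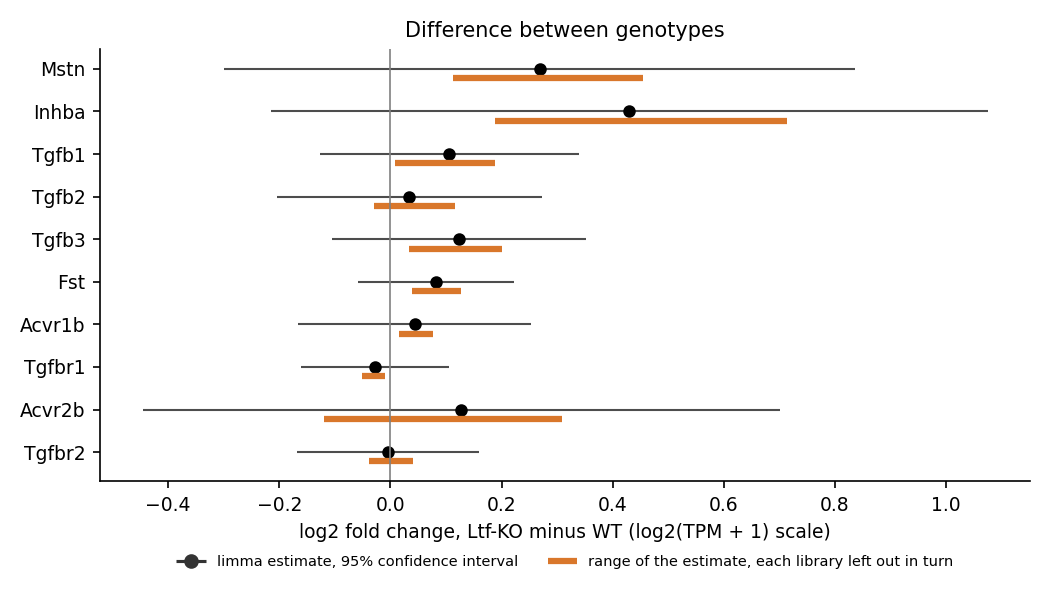
Log2 fold change of each member, *Ltf*-KO minus WT on the log2(TPM + 1) scale (point), with its 95% confidence interval (grey line) and the range of the estimate when each library was left out in turn (orange). All 10 intervals include 0, and the widest are those of *Inhba*, *Mstn* and *Acvr2b*.

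The members were set among 95 genes of the TGF-beta, activin and myostatin pathway, of which 79 were tested. Of these, 4 had an unadjusted p under 0.05, all higher in *Ltf*-KO SCs (5.06% of the list against 3.78% of all tested genes), and 0 had an adjusted p under 0.05 by limma. The count ranged from 0 without WT replicate 1 to 10 without *Ltf*-KO replicate 3, where 506 and 611 of all tested genes passed. It was 2 when either WT replicate 2 or *Ltf*-KO replicate 1 was left out, against 456 and 480 of all tested genes. The genotypes were apart for 6 of the 79 genes (7.59% against 8.46%). The median log2 fold change was 0.06 for the list and 0.01 for all tested genes. The list's median was 0.03 without WT replicate 1, 0.01 without *Ltf*-KO replicate 2 and 0.09 without *Ltf*-KO replicate 3. In the main comparison, 58 of the 79 genes had a positive value (73.4% against 55.7%), as did 58 with quantile normalization and 56 with median-of-ratios scaling. The count was 47 without *Ltf*-KO replicate 2 and 69 without *Ltf*-KO replicate 3, where the median of all tested genes was 0.0066 and 0.0152. The KEGG TGF-beta signaling pathway, as annotated in the table, shares genes with this list and also holds BMP genes. Of its 71 tested genes, 0 were higher and 1 was lower at an unadjusted p under 0.05 (1.41%), the genotypes were apart for 9 (12.7% against 8.46%), its median log2 fold change was 0.04, and 50 values were positive (70.4%). The 1 gene was *Bmp4*, named after its values were seen, with 8.87, 3.66 and 11.1 TPM in WT and 1.58, 1.53 and 3.31 TPM in *Ltf*-KO libraries and a difference of -1.43 on the log2 scale (standard error 0.39, limma adjusted p = 0.999). By role, positive values numbered 9 of 9 ligands, 12 of 15 antagonists and carriers, 7 of 8 activators, 4 of 6 receptors, 8 of 19 SMADs and modulators and 18 of 22 targets. *Ltf*-KO replicate 2 held the highest value of 34 of the 79 genes, and of 21.3% of all tested genes.

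*Lrrc32*, which encodes GARP, a surface protein that tethers latent TGF-beta, was at 1.97, 1.95 and 2.56 TPM in WT and at 4.76, 6.03 and 2.47 TPM in *Ltf*-KO libraries. *Ltf*-KO replicates 1 and 2 were above the WT libraries and replicate 3 was inside their range, and the log2 fold change was 0.72 (standard error 0.26, limma adjusted p = 0.999). *Tagln*, a smooth muscle protein gene that TGF-beta induces, was at 59.8, 59.5 and 60.8 TPM in WT and at 67.4, 83.8 and 66.0 TPM in *Ltf*-KO libraries, and *Tgfbrap1*, encoding a protein that associates with TGF-beta receptors, at 10.1, 10.8 and 11.5 TPM and at 12.3, 12.1 and 12.7 TPM. In both the genotypes did not overlap, with log2 fold changes of 0.26 and 0.18 (limma adjusted p = 0.999 for each), and that of *Tagln* was 0.15 without *Ltf*-KO replicate 2. *Tagln* is also on the smooth muscle and pericyte list of 11 genes. Of its 7 tested genes, 2 had an unadjusted p under 0.05, both higher in *Ltf*-KO SCs, against 3.78% of all tested genes (2.01% higher). That list summed to 1028.5, 1105 and 975 TPM in WT and to 1122, 1049 and 1217.5 TPM in *Ltf*-KO libraries, led by *Acta2* at 492 TPM and *Des*, which is also on the SC and myoblast list, at 473 TPM, together 89.1% of the sum. Without these the list summed to 109 TPM in each WT library and to 122, 143 and 114 TPM in *Ltf*-KO libraries, with *Tagln* itself the largest part. Among its pericyte markers, *Cspg4*, *Notch3* and *Abcc9* were at 30.8 to 41.1, 5.95 to 9.07 and 1.09 to 1.86 TPM. *Rgs5*, *Myh11*, *Kcnj8* and *Cnn1* were too low to be tested. *Rgs5* was at 0.12 to 0.18 TPM in WT and 0.23 to 0.46 TPM in *Ltf*-KO libraries, and *Myh11* had means of 0.317 and 0.523 TPM. Lower means in *Ltf*-KO were seen for *Kcnj8*, at 0.0967 TPM in WT and 0.0367 TPM in *Ltf*-KO libraries, and for *Cnn1*. *Cnn1*, also on the target list, was at 2.89, 0.94 and 0.38 TPM in WT and at 0.40, 0.76 and 0.37 TPM in *Ltf*-KO libraries. The other gene was *Pdgfrb*, at 3.73, 3.89 and 4.71 TPM in WT and at 6.95, 7.51 and 4.80 TPM in *Ltf*-KO libraries, and 1 of 7 tested fibroblast markers, *Mfap5*, was at 1.24, 1.53 and 2.24 TPM and at 3.78, 3.24 and 2.66 TPM. The genotypes did not overlap in either, both are named after their values were seen, and their log2 fold changes were 0.52 and 0.67 (limma adjusted p = 0.999 for each). The part of other cell types in the *Tagln* values was not tested. *Itgav*, the integrin chain that takes part in releasing TGF-beta from its latent form, had a log2 fold change of 0.20 (limma adjusted p = 0.999) with overlapping genotypes.

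The most abundant genes among the activators, carriers, SMADs and targets were above all ligands of the list. *Thbs1*, encoding an activator of latent TGF-beta, had a mean of 632 TPM, and was followed among the activators by *Mmp14* (85.8 TPM) and *Furin* (71.7 TPM). Among antagonists and carriers, *Bgn* (190 TPM), *Ltbp1* (95.1 TPM) and *Ltbp3* (64.8 TPM) led, and *Ltbp1*, encoding a latent TGF-beta binding protein, ranged only from 93.9 to 96.7 TPM. *Fkbp1a*, *Tgif1* and *Pmepa1* led the SMADs and modulators at 362, 153 and 138 TPM, and *Vim*, *Tsc22d1* and *Timp1* led the targets at 6100, 586 and 539 TPM. Of the 16 genes of the list that were not tested, *Nodal*, *Lefty2* and *Tdgf1* were listed at 0 in all 6 libraries.

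**Figure D4:**
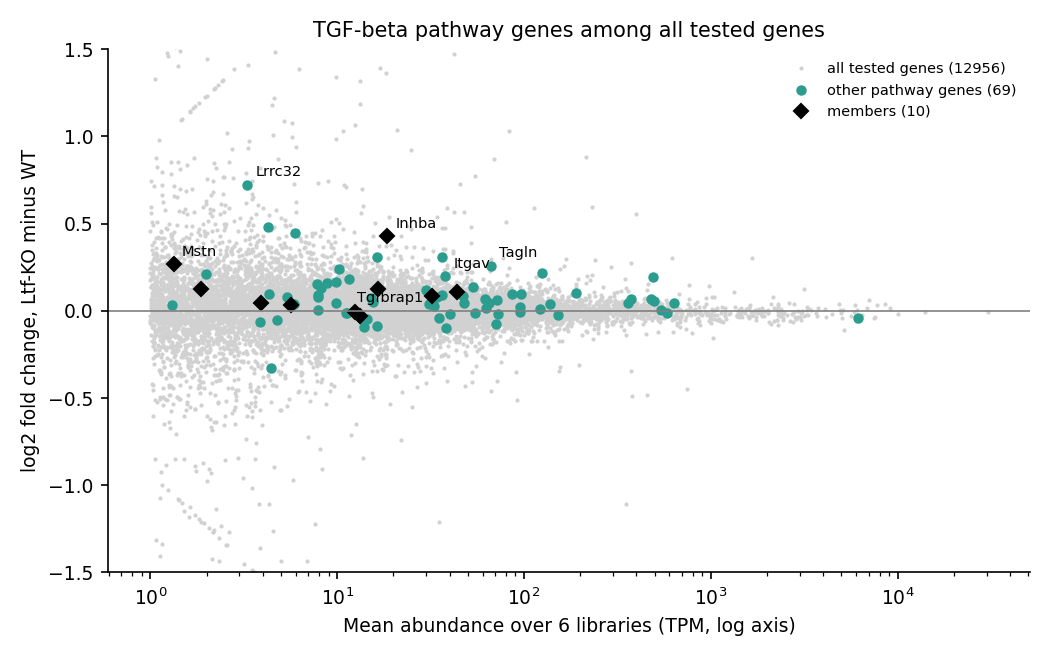
Log2 fold change (*Ltf*-KO minus WT) against mean TPM on a log axis for all 12956 tested genes (grey), the 69 other pathway genes (green) and the 10 members (black). The members lie between -0.03 (*Tgfbr1*) and 0.43 (*Inhba*), and *Lrrc32* is the highest labelled gene, at 0.72. The axis ends at 1.5 in each direction, which leaves 123 tested genes undrawn, 0 of them on the pathway list.

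The tested genes whose log2(TPM + 1) followed each member most closely over the 6 libraries were taken by Pearson correlation among 12955 other genes, as a description. For *Mstn* they were *Map3k7cl* (r = 0.992), *Cyld* (0.990) and *Hes6* (0.989), and for *Inhba* they were *Epb41l2* (0.996), *Rere* (0.992) and *Pitrm1* (0.992). *Hes6*, a gene expressed in differentiating myoblasts, was at 459, 477 and 425 TPM in WT and at 477, 440 and 502 TPM in *Ltf*-KO libraries. For *Fst* they were *Usb1* (0.979), *Kif18a* (0.978) and *Arhgap5* (0.978), and for *Tgfb1* they were *Dusp7* (0.991), *Dhx16* (0.990) and *Gprc5a* (0.989). The lowest of the closest matches was 0.979, for *Fst* and for *Tgfbr1*, so a value of this size did not set a member apart.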

How the data were processed

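SCs of 3 WT and 3 *Ltf*-KO samples were sequenced, and libraries were assigned to genotypes from the sample labels. The authors deposited TPM values with 2 decimals, and the sources used here say that normalization followed a manufacturer's protocol. The unit was inferred from the values, which summed to between 993650 and 994356 per library. The submitters' processing notes name the build GRCm39, and the aligner and counting tool are not given in the sources used here. TPM keeps no depth, so precision was judged from the spread between libraries, whose median coefficient of variation in WT was 14.1% at 1 to 10 TPM and 5.58% at 10 to 100 TPM.

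limma 3.58.1 in R 4.3.3 (lmFit, eBayes with a trend, two-sided) was run on log2(TPM + 1) for genes whose mean reached 1 TPM, with Benjamini-Hochberg adjustment over all 12956 tested genes and a threshold of 0.05. The fit was tested on simulated data with independent noise and with changes only in genes of at least 10 TPM. Changes at the low levels of *Mstn* and *Acvr2b* were thus not simulated. Members and gene lists were chosen with earlier results of these data known. Genes named were the members, *Ltf*, pathway genes at an unadjusted p under 0.05, the 3 most abundant genes of each role, the most abundant and defining markers, and the 3 genes most correlated with a member, and some of these are not reported here. Other genes (*Ccn2*, *Postn*, *Bmp4*, *Pdgfrb*, *Mfap5*, the remaining markers named, and pathway genes listed at 0) were named after their values were seen. Alternatives were a pseudocount of 0.1, no filter, a mean of at least 10 TPM, quantile normalization, median-of-ratios scaling, a replicate block, eBayes without trend, and each library left out in turn. Promoters came from RefSeq and overlapping genes from GENCODE M21, both on GRCm38, and no coordinates were converted.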

Additional observations from a re-analysis of the deposited data

How the results depend on the processing

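Over the alternatives run, 122 of 126 values of the members' log2 fold changes kept their direction, and the smallest adjusted p by limma was 0.946. The 4 that changed sign came from leaving out 1 library. *Tgfb2* was -0.03 without WT replicate 3, *Acvr2b* was -0.12 without *Ltf*-KO replicate 1, and *Tgfbr2* was 0.0298 when WT replicate 3 was left out and 0.0405 when *Ltf*-KO replicate 3 was. With each library left out, *Tgfb2* ranged from -0.0304 to 0.1165, *Acvr2b* from -0.1197 to 0.3089 and *Tgfbr2* from -0.0383 to 0.0405. The number of members at an unadjusted p under 0.05 ranged from 0 to 1 with each library left out, with 1 (*Inhba*) without *Ltf*-KO replicate 3, and members with an adjusted p under 0.05 numbered 0 in every alternative run. With each library left out, genes with an adjusted p under 0.05 ranged from 0 to 6, with 6 without WT replicate 2, 1 without WT replicate 3, and 5, 2 and 4 without *Ltf*-KO replicates 1, 2 and 3. The cause was not tested. Genes at an unadjusted p under 0.05 numbered 890 without a filter and 281 when a mean of 10 TPM was required, because more and fewer genes were then tested. The pathway list held 4 such genes, and from 0 without WT replicate 1 to 10 without *Ltf*-KO replicate 3, with 2 when either WT replicate 2 or *Ltf*-KO replicate 1 was left out. Of all tested genes, 506 and 611 passed in the fits that gave 0 and 10.

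With the replicate number as a block, the pathway list held 1 gene at an unadjusted p under 0.05, *Tagln*, against 380 of all tested genes. Same-numbered libraries did not vary together over all genes (correlations of -0.0413, -0.0582 and -0.0875). Such values cannot exclude a shared batch that affects only some genes, and the labels do not say what the numbers mean. The block left 0 genes with an adjusted p under 0.05. Under quantile normalization and median-of-ratios scaling, 8 of 10 members kept positive values. Depth is unknown, so the counting error of the low values of *Mstn* and *Acvr2b* cannot be given.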
